A study of Saccharomyces cerevisiae with 109 samples.

Results

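Steady-state messenger RNA of budding yeast kept at 1 °C was compared with that of yeast kept at 30 °C. Of the 109 libraries of the series, 6 hold steady-state RNA of low GSH populations at these temperatures. They were compared as 3 at 1 °C and 3 at 30 °C. Low GSH means that no reduced glutathione (GSH, the main small thiol antioxidant of the cell) was added to the medium. The filter on low counts, the normalization and the estimate of spread used all 15 steady-state libraries of the series. These include low GSH cultures at 5 °C and cultures at 1 °C and 5 °C with 250 µM GSH added. All the cells were wild-type haploid W303 of mating type MATa, whose genotype carries mutations in his3, leu2, ura3, ade2 and can1 and a deletion in trp1, and all were grown in defined medium with saturating glucose. Cells from a 30 °C starter culture were moved to fresh medium and kept at the stated temperature. The study's methods state 1 incubation time for these cultures, worded for whichever temperature was wanted, and temperature and growth phase at harvest cannot be told apart in any comparison here. Of the 13700 transcript rows in each library, 5876 were nuclear protein-coding genes of Saccharomyces cerevisiae, and 5697 of them had enough reads to be tested.

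The temperature of 1 °C lies near the lower limit at which this yeast can divide. In the cold, membranes stiffen, RNA folds tightly, proteins fold and turn over slowly, and every enzyme works at a fraction of its usual rate. Budding yeast answers a cold shock with cell wall mannoproteins of the TIR and DAN family and with RNA helicases. In prolonged cold it also uses part of the general stress programme that the factors Msn2 and Msn4 drive through the stress response element in promoters. That programme overlaps with the genes used when glucose runs out, among them those for reserve carbohydrates, respiration and small heat shock proteins, while growth on plentiful glucose favours ribosomes and glycolysis.

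The 1 °C libraries held 35664705 to 42970939 assigned reads and the 30 °C libraries 26824283 to 60955974. Between 23271952 and 28577718 of the reads at 1 °C, and between 13821151 and 32634257 at 30 °C, fell on the 5876 genes. Fission yeast cells (Schizosaccharomyces pombe) had been added to each sample in a fixed amount. The libraries held 8.71 ± 2.05 budding yeast mRNA reads for each S. pombe read at 1 °C, against 2.75 ± 0.222 at 30 °C (mean ± SD of 3). More budding yeast cells in the sample and more mRNA in each cell cannot be told apart in that ratio.

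The fold changes below are therefore relative to the typical mRNA. They came from edgeR's quasi-likelihood test with TMM normalization, which sets the bulk of genes to no change, and the median log2 fold change of all genes tested was 0.03. Scaling by the sum of mRNA reads moved that median up by 0.61 and scaling by the S. pombe reads moved it up by 2.26. Such a scaling moves all genes alike, so a list median between -0.61 and 0 has the other sign under the sum of mRNA reads, with the same place among the genes. On the S. pombe scale each of the 44 gene lists used here had a median above 0, the lowest being 0.74 for ribosomal proteins. "Higher" and "lower" mean higher or lower at 1 °C relative to the typical mRNA, at a Benjamini-Hochberg adjusted p under 0.05. The level of a gene in a library is given in TPM (each transcript's share of these mRNAs, corrected for its length) rescaled by the same TMM factors, and is called its normalised level. A share of mRNA is given in percent of the summed TPM without that rescaling.

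Replicate 2 at 1 °C stood apart from the other libraries. In it, 1.02% of the reads on budding yeast rows fell on 656 open reading frames that the R64 annotation does not count as protein-coding, against 0.216% to 0.284% in the other 14 steady-state libraries. HYP2, which encodes the translation factor eIF5A, had 9877, 0 and 8563 reads in replicates 1, 2 and 3 at 1 °C, and the open reading frame on the opposite strand of the same locus, YEL034C-A, had 507, 12242 and 465. In that library 91 genes stood more than 4 times above both other 1 °C libraries, where replicate 1 had 1 such gene and replicate 3 had 0. At 30 °C replicate 3 had 14 genes above both other libraries by that factor, and replicates 1 and 2 had 0. Genes whose change rested on 1 of these libraries are given with the value without it. The labels only number the replicates, and the study describes replicates of its experiments as biological, each from its own colony and day.

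At 1 °C, 2103 genes were higher and 2076 lower, which is 36.9% and 36.4% of all genes tested. Changes of at least 2-fold were found for 731 genes that were higher (12.8%) and for 843 that were lower (14.8%). Without replicate 2 at 1 °C the counts were 682 and 857 at 2-fold, and 639 of the 731 and 801 of the 843 genes kept both their call and their 2-fold change. Temperature was also the first axis of the data, since the first principal component of the 6 libraries separated the temperatures and held 76.3% of the variance, while the second held 10.1% and set replicate 2 at 1 °C apart from the other 1 °C libraries.

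**Figure D1:**
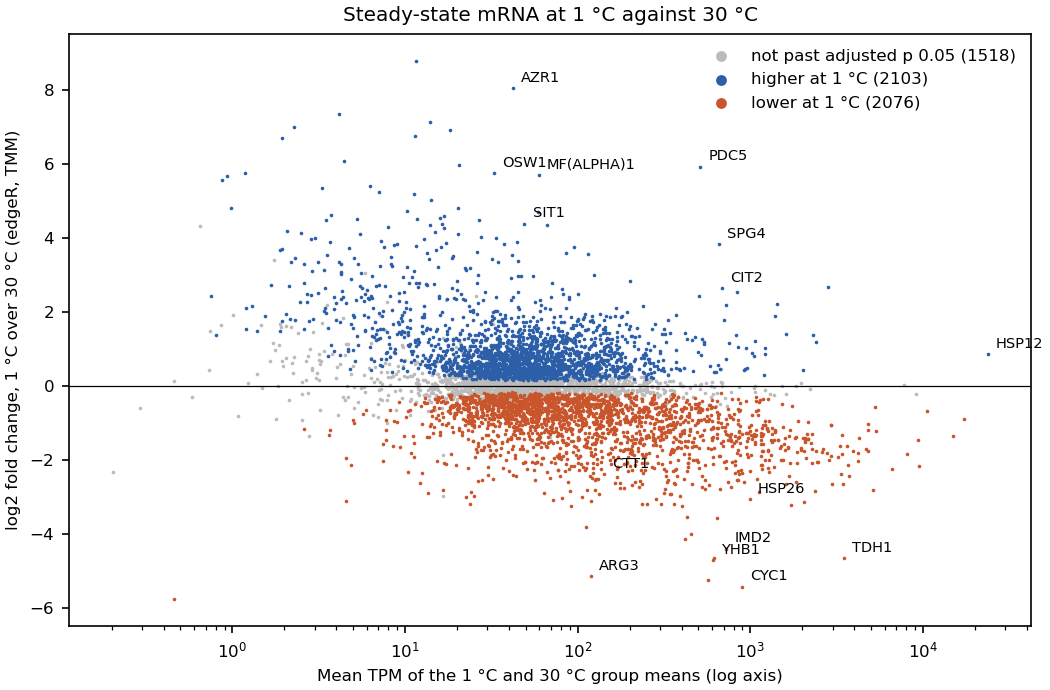
Each point is 1 of 5697 genes, with its mean TPM at 1 °C and 30 °C on a log axis and the edgeR log2 fold change of 1 °C over 30 °C. Coloured points are the 2103 genes that were higher and the 2076 that were lower, at an adjusted p under 0.05 and any fold. The falls reach further into the abundant genes on the right than the rises do.

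The largest rise among the genes named by rule was that of AZR1, a plasma membrane transporter known for resistance to azole drugs and weak acids. Its levels were 67.5, 77.1 and 56.4 at 1 °C, against 0.196, 0.432 and 0.197 at 30 °C. The groups differed by 8.04 ± 0.26 on the log2 scale (edgeR adjusted p = 2.1e-11). The 5 °C libraries, at 1.34, 0.714 and 1.08, lay above each of those at 30 °C and far below those at 1 °C.

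The letters of the stress response element, AGGGG, stand before 34.6% of all genes tested, among them genes that moved in opposite directions. The following stretches give examples for AZR1, for PDC5 (a reserve pyruvate decarboxylase, higher at 1 °C) and for TDH1 (a glycolytic dehydrogenase, lower at 1 °C). The sequences are from the RefSeq genome, build R64. Each is on the + strand, 5′ to 3′, with AGGGG or its reverse complement in capitals, at chrVII:942475-942534 for AZR1, chrXII:410325-410384 for PDC5 and chrX:338014-338073 for TDH1.
AZR1: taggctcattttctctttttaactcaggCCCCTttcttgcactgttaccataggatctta
PDC5: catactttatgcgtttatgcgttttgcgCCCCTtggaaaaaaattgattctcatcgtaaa
TDH1: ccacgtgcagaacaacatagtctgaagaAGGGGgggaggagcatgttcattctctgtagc
AZR1 and TDH1 each hold 2 such matches in their 500 bases and PDC5 holds 1.

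The mRNA pool was spread over more genes at 1 °C. The 100 most abundant mRNAs of a library made up 30.2 ± 1.09% of its mRNA at 1 °C, against 40.6 ± 2.54% at 30 °C (mean ± SD of 3 libraries), and the ranges of the groups did not overlap. An exact permutation test of 3 against 3 libraries cannot give a two-sided p below 0.1, and the same holds for each share of mRNA below. Between 336 and 405 genes were needed to reach 50% of the mRNA at 1 °C, against 143 to 198 at 30 °C. The top 10 alone took 12.0% at either temperature. Of the 100 genes with the highest mean at each temperature, 64 were in both sets.

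HSP12, a small membrane-protecting stress protein, was the most abundant mRNA at 1 °C. Its normalised level was 33080.2, 28262 and 24450.4 in the 1 °C libraries and 13936, 17266 and 17897 at 30 °C. Every 1 °C library lay above every 30 °C library, and the log2 fold change was 0.86 ± 0.13 (SE, edgeR adjusted p = 3.3e-05). FBA1, the glycolytic aldolase, was among the 10 most abundant mRNAs at both temperatures, at 3871, 3638 and 5328 at 1 °C, against 20004, 20381 and 17209 at 30 °C. That is a log2 change of -2.16 ± 0.13, with a wide gap between the groups. PDC1, the main pyruvate decarboxylase, and AHP1, a thioredoxin peroxidase, were in the top 10 at 1 °C with changes of -0.22 ± 0.18 and 0.03 ± 0.15 that did not pass the test. Without replicate 3 at 30 °C PDC1 was lower, at -0.41 (edgeR adjusted p = 0.018). TDH3, TEF2 and the metallothionein CUP1-2 were also at the top, but each has a near-identical copy in the genome, so their separate levels are uncertain.

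Cytosolic ribosomal proteins were nearly all lower. Of 137 tested, 134 were lower and 1 was higher, 126 were lower by at least 2-fold, and the median log2 fold change was -1.55 beside 0.03 for all genes. Their share of mRNA was 14.3 ± 0.697% at 1 °C and 26.0 ± 4.43% at 30 °C. Of the 139 genes in the list, 40 have a near-identical copy, and reads may have been split between such copies. Ribosomal protein genes are short, and with the trend on coding length removed the median was -1.28, beside -1.34 for glycolysis and gluconeogenesis.

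RPS3, a core protein of the small subunit, had normalised levels of 898, 851 and 973 at 1 °C, against 2737, 2729.5 and 2032 at 30 °C. The groups were far apart, with a log2 change of -1.44 ± 0.12 (edgeR adjusted p = 7.7e-08). RPL3, its counterpart in the large subunit, changed by -1.15 ± 0.12. Larger falls were those of RPS28B at -2.49 ± 0.12, RPL31B at -2.21 ± 0.11 and RPL27B at -2.01 ± 0.08. RPL15B was the 1 member that was higher, at 0.31 ± 0.13, its levels overlapped between the groups, and it lost the call without replicate 1 or 3 at 1 °C or replicate 3 at 30 °C.

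Translation factors followed the same direction. Of 44 tested, 36 were lower and 1 was higher, with a median of -0.94 and a share of mRNA of 2.27 ± 0.16% at 1 °C against 3.99 ± 0.14% at 30 °C. The factors that recruit the small subunit to the mRNA cap were among them: CDC33, the cap-binding protein eIF4E, changed by -1.92 ± 0.10 and TIF4631, the scaffold eIF4G, by -1.71 ± 0.08. RLI1, which splits ribosomes after termination, had levels of 39.4, 46.1 and 43.8 at 1 °C, against 198, 189 and 191 at 30 °C. Both groups were tight and the change was -2.16 ± 0.07. HEF3 was the 1 factor that was higher, and by a wide margin. It encodes a second form of elongation factor 3 that glucose-grown cells hardly use, and its levels were 144, 155 and 143 at 1 °C, against 8.93, 10.2 and 13.2 at 30 °C, a log2 change of 3.77 ± 0.12 (edgeR adjusted p = 2.1e-11). HYP2 changed by -2.54 without the library that put its reads on the other strand, and by -3.14 with it.

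Genes that build ribosomes behaved unlike the genes for the ribosomal proteins. Of 69 tested genes for assembly of the 60S subunit, 26 were higher and 15 lower with a median of 0.12, and of 57 for the 40S subunit 16 were higher and 23 lower with a median of -0.05. Their shares of mRNA were 0.941 ± 0.021% at 1 °C against 0.485 ± 0.063% at 30 °C for 60S assembly, and 0.557 ± 0.017% against 0.393 ± 0.053% for 40S assembly. These shares are not relative to the typical mRNA. Scaled by the sum of mRNA reads, the median log2 change was 0.73 for 60S assembly, 0.55 for 40S assembly and 0.64 for all genes. Beside the counts of both lists, 36.9% of all genes tested were higher and 36.4% lower. Among the higher members, BFR2, which works with the helicase Dbp4 in the 40S precursor, had levels of 87.2, 74.6 and 75.7 at 1 °C against 24.8, 25.6 and 29.6 at 30 °C, a change of 1.57 ± 0.08, and DHR2, a helicase of the same precursor, changed by 1.65 ± 0.16. SNU13, a protein shared by small nucleolar particles and the spliceosome, was lower by contrast, at -1.49, and NOP13 by -0.81.

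Of 13 DEAD-box helicases, the enzymes that unwind RNA duplexes, 8 were higher and 3 lower, with a median of 0.44. DBP2, which remodels mRNA in the nucleus, led them with levels of 244, 261 and 311 at 1 °C against 78.7, 70.7 and 56.4 at 30 °C, a log2 change of 2.0 ± 0.14 (edgeR adjusted p = 1.3e-08). FAL1, a nucleolar helicase, rose by 1.62 ± 0.11, and PRP5, which acts in early splicing, by 1.21. Those that were lower were DBP5, which releases mRNA at the nuclear pore, at -1.27, SUB2, which acts in splicing and export, at -1.03, and TIF1, a copy of the initiation factor eIF4A, at -1.41.

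The mitochondrial ribosome did not follow the cytosolic one. Of 76 tested proteins, 30 were higher and 16 lower, beside 36.9% and 36.4% of all genes, and the median was 0.04. Their share of mRNA was 1.36 ± 0.06% at 1 °C against 0.747 ± 0.013% at 30 °C. Scaled by the sum of mRNA reads, the median was 0.65 for this list and 0.64 for all genes. MRPL33, a large-subunit protein, had levels of 667, 534 and 674 at 1 °C, against 267, 245 and 261 at 30 °C, a change of 1.34 ± 0.10. MRPS16 of the small subunit rose by 1.19 ± 0.10. RNA polymerase subunits went down with the cytosolic ribosome: 23 of 31 were lower and 3 higher, median -0.65. RPB5, a subunit shared by all nuclear polymerases, changed by -1.87 ± 0.09 and RPA135, of the polymerase that makes ribosomal RNA, by -1.47 ± 0.10. The largest subunit of RNA polymerase II, RPO21, changed by -0.87 ± 0.11, while RPB3 of the same enzyme stood at -0.05 ± 0.10 and did not pass the test.

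**Figure D2:**
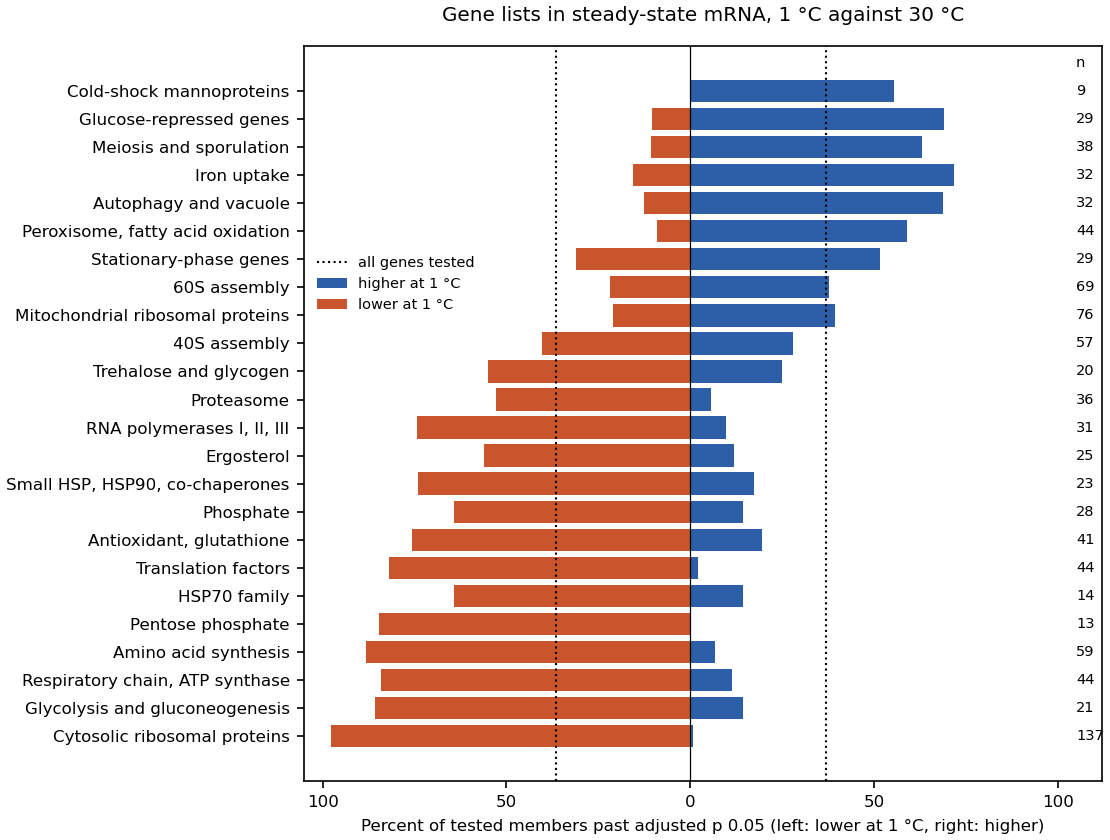
For each of 24 gene lists, the bars give the percent of its tested genes that were higher (right) or lower (left) at 1 °C, the number tested stands at the right edge, and the dotted lines mark the 36.9% and 36.4% of all genes. Ribosomal proteins lie at the lower extreme with 134 of 137 lower, and glucose-repressed, iron uptake and autophagy genes at the other.

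Of 21 tested genes of glycolysis and gluconeogenesis, 18 were lower and 3 higher, with a median of -1.45, and their share of mRNA was 4.44 ± 0.60% at 1 °C against 8.93 ± 0.64% at 30 °C. The 3 that were higher all act in the direction of glucose synthesis: FBP1 (fructose-1,6-bisphosphatase), PCK1 (phosphoenolpyruvate carboxykinase) and PYC1 (pyruvate carboxylase). FBP1 had levels of 19.1, 35.0 and 22.1 at 1 °C, against 1.52, 1.17 and 1.08 at 30 °C, with no overlap and a change of 4.38 ± 0.24 (edgeR adjusted p = 1e-09). PCK1 changed by 1.58 ± 0.16 and PYC1 by 0.48, while PYC2, the other pyruvate carboxylase, was lower at -1.27.

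TDH1, the glyceraldehyde-3-phosphate dehydrogenase form of slow-growing cells, made the largest glycolytic fall. Its levels were 409, 282 and 378 at 1 °C, against 6756, 9548 and 10617 at 30 °C, a log2 change of -4.64 ± 0.18 (edgeR adjusted p = 5.3e-11). The lowest 30 °C library was far above the highest 1 °C library. PGI1 and PFK2, which act at the head of the pathway, changed by -2.36 ± 0.12 and -2.24 ± 0.09, and ENO2, an enolase, by -2.80 ± 0.15.

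The enzymes that follow glycolysis split. PDC5 is a reserve pyruvate decarboxylase, known to rise when the main form is missing or thiamine is short. Its levels were 1229, 508 and 722 at 1 °C, against 13.9, 13.8 and 12.8 at 30 °C, so that even the lowest 1 °C library stood far above all of the 30 °C libraries, and the change was 5.93 ± 0.34 (edgeR adjusted p = 1.5e-09). ACS1, the acetyl-CoA synthetase of glucose-starved cells, changed by 3.57 ± 0.32. In the other direction, ALD6, the cytosolic acetaldehyde dehydrogenase that supplies acetate and NADPH, had levels of 91.6, 90.8 and 94.3 at 1 °C against 1399, 1144 and 654 at 30 °C, a change of -3.52 ± 0.21. ADH6, an NADPH-dependent alcohol dehydrogenase, changed by -2.96 ± 0.25. The pentose phosphate pathway, the other main source of NADPH, had 11 of 13 genes lower and 0 higher, with GND1 (6-phosphogluconate dehydrogenase) at -3.19 ± 0.17 and TKL1 (transketolase) at -2.77 ± 0.12.

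Hexose transporters moved in both directions. HXT7, a high-affinity transporter with a near-identical copy in HXT6, had levels of 82.2, 81.3 and 48.9 at 1 °C against 1034, 1205 and 1155 at 30 °C. HXT1, a low-affinity transporter, changed by -2.87 ± 0.22. HXT3, another of low affinity, was higher, at 1179, 1039 and 1025 against 303.4, 372 and 568, a change of 1.39 ± 0.18 (edgeR adjusted p = 5.2e-06). Over the list of transporters and their regulators, 12 of 22 were higher and 7 lower, and without replicate 2 at 1 °C 7 were higher and 7 lower.

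Genes that glucose normally keeps off were mostly higher. Of 29 tested, 20 were higher and 3 lower, 18 of them by at least 2-fold, with a median of 1.46, and their share of mRNA was 0.315 ± 0.013% at 1 °C against 0.0872 ± 0.0044% at 30 °C. CIT2, the citrate synthase of the glyoxylate cycle, had levels of 1057, 956 and 1007 at 1 °C, against 180.3, 161 and 143 at 30 °C, a change of 2.65 ± 0.10 (edgeR adjusted p = 4.1e-11). Replicates were within a narrow band in both groups. CRC1, the mitochondrial carnitine carrier, and CIT3, a mitochondrial citrate synthase, changed by 3.36 ± 0.11 and 2.97 ± 0.11. SUC2, the invertase that glucose represses strongly, stood at 0.09 ± 0.12 and did not pass the test, and ALD4, the mitochondrial acetaldehyde dehydrogenase, was lower at -1.19.

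Peroxisome and fatty acid oxidation genes rose with them, 26 of 44 higher and 4 lower, median 0.55. SPS19, which opens unsaturated fatty acids to oxidation, changed by 3.00 ± 0.13, and PEX15, which anchors the import machinery, by 1.54 ± 0.08. Autophagy and vacuole genes had 22 of 32 higher and 4 lower, median 0.61. ATG33, needed for removal of mitochondria, and ATG13 and ATG7 of the core machinery changed by 1.32 ± 0.08, 1.23 ± 0.08 and 1.17 ± 0.08. APE1, the aminopeptidase that the vacuole imports by this route, was lower at -2.72 ± 0.16, with levels of 74.5, 81.2 and 69.2 at 1 °C against 394, 443 and 648 at 30 °C.

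Respiration went the other way. Of 44 tested genes for respiratory complexes and ATP synthase, 37 were lower and 5 higher, 29 were lower by at least 2-fold, and the median was -1.33, or -0.96 with the trend on coding length removed. CYC1, the main form of cytochrome c, made the largest fall of any named gene: 61.9, 49.6 and 55.0 at 1 °C against 3127, 2709.9 and 1473 at 30 °C, a log2 change of -5.41 ± 0.26 (edgeR adjusted p = 2.4e-10). Each 30 °C library was far above all of those at 1 °C. CYC7, the form of cytochrome c used in low oxygen, fell too, by 2.04 on the log2 scale. QCR6 and CYT1 of the cytochrome bc1 complex changed by -2.49 ± 0.10 and -2.23 ± 0.09. HAP4, the activator of these genes, had levels of 26.5, 34.5 and 29.9 against 247, 250.0 and 234, a change of -3.00 ± 0.12.

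The 5 respiratory members that were higher were NDE2, an external NADH dehydrogenase, at 1.25 ± 0.11, STF2 and STF1, linked to the inhibitor of ATP synthase, at 1.2 ± 0.10 and 0.74, and the small subunits QCR10 of the bc1 complex and COX9 of cytochrome c oxidase at 0.45 and 0.30. STF2, also known as a protein that protects dry cells, was abundant, at 3651, 2616 and 3014 against 1492, 1347 and 1366. TCA cycle and glyoxylate genes divided, with 17 of 26 lower and 8 higher. YHB1, a flavohemoglobin that removes nitric oxide, was among the largest falls outside the lists, at 74.5, 55.1 and 53.0 against 1333, 1787 and 1635, a change of -4.69 ± 0.17.

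**Figure D3:**
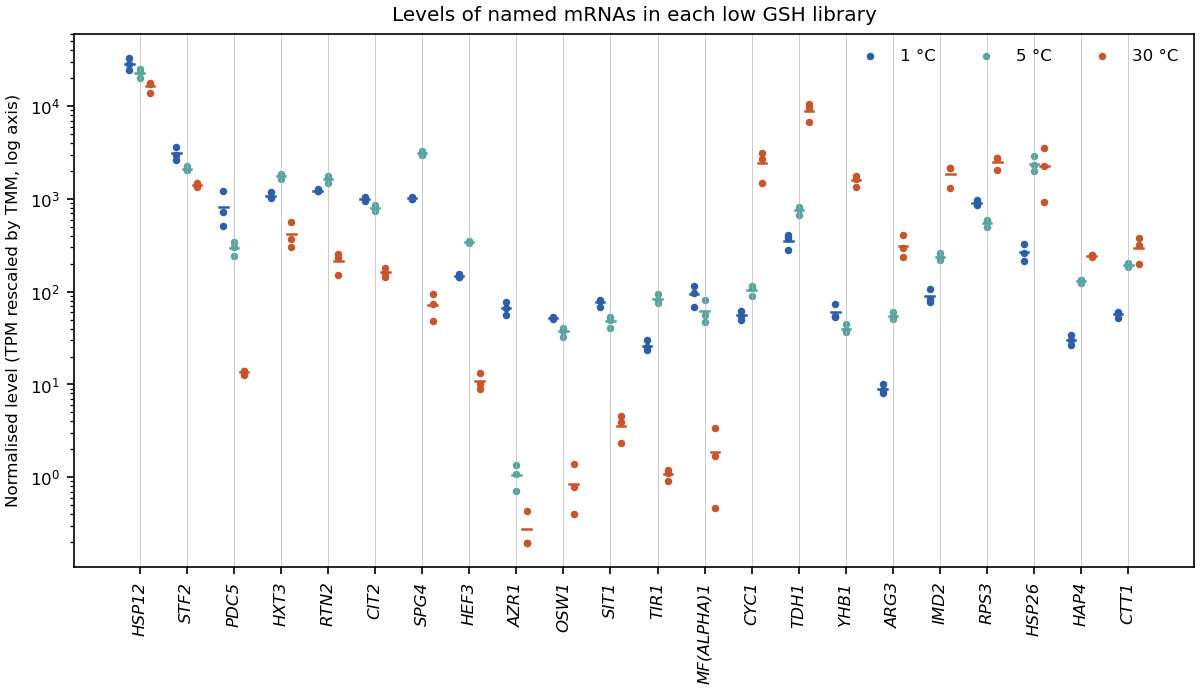
Normalised level (TPM rescaled by TMM, log axis) of 22 named mRNAs in each low GSH library at 1 °C, 5 °C and 30 °C, with a short bar at the mean of 3 libraries. The points of a group mostly fall close together, AZR1 stands at 56.4 to 77.1 at 1 °C and below 1.5 at 5 °C and 30 °C, and HSP26 is low at 1 °C and high at 5 °C.

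Amino acid synthesis was mostly lower. Of 59 tested genes 52 were lower and 4 higher, 39 were lower by at least 2-fold, and the median was -1.27. ARG3, ornithine carbamoyltransferase of arginine synthesis, had levels of 8.78, 8.09 and 10.0 at 1 °C, against 297, 237 and 409 at 30 °C, a log2 change of -5.12 ± 0.19 (edgeR adjusted p = 3e-11). ARG8 of the same pathway and TRP2 of tryptophan synthesis changed by -2.83 ± 0.13 and -2.05 ± 0.10. GCN4, the activator of these genes, changed by -1.60 ± 0.09. Among the 4 that were higher, LYS1 of lysine synthesis changed by 0.71 ± 0.13, and BAT2, which also breaks down branched-chain amino acids, by 0.87 ± 0.19.

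Several of the largest falls lay outside the lists. IMD2 and IMD3 encode IMP dehydrogenase, the first step towards GTP. IMD2 stood at 83.9, 107 and 77.9 at 1 °C against 2158, 2153 and 1324 at 30 °C, a change of -4.38 ± 0.19, and IMD3 changed by -3.55 ± 0.11 (edgeR adjusted p = 1.5e-11). FUR1, which salvages uracil, changed by -3.18 ± 0.16. Of the other large falls, GAS1 and CWP1 belong to the cell wall, at -2.91 ± 0.19 and -3.79 ± 0.33. Their list had 13 of 34 higher and 14 lower, beside 36.9% and 36.4% of all genes, and a median of -0.14. ERG5, a late step of ergosterol synthesis, was at -3.07 ± 0.14.

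Some of the largest falls rested on scattered 30 °C libraries. OYE3, an NADPH oxidoreductase induced by reactive aldehydes and oxidants, stood at 258, 738 and 3342 at 30 °C and at 36.3, 40.4 and 36.9 at 1 °C, and its change of -5.24 became -3.70 without replicate 3 at 30 °C. ZRT1, the zinc transporter, stood at 371, 932 and 1812 at 30 °C, and its change of -4.12 became -3.45. INO1, which makes inositol, stood at 1303, 1494 and 126 at 30 °C against 90.4, 110.4 and 109.6 at 1 °C. The groups did not overlap in any of these, but the 30 °C libraries were widely scattered, and INO1 in replicate 3 at 30 °C was close to its 1 °C levels.

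Antioxidant and glutathione genes were mostly lower. Of 41 tested, 31 were lower and 8 higher, and the median was -0.89. CCS1, the copper chaperone of superoxide dismutase, had levels of 56.6, 65.7 and 58.8 at 1 °C against 497, 496 and 665 at 30 °C, a change of -3.18 ± 0.12. TSA1, the main peroxiredoxin, and GSH2, glutathione synthetase, changed by -2.08 ± 0.11 and -2.09 ± 0.09. CTT1, the cytosolic catalase and a classic target of Msn2 and Msn4, stood at 58.7, 60.6 and 52.5 against 322, 378 and 198, a change of -2.38 ± 0.18 (edgeR adjusted p = 2e-08).

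The glutathione enzymes differed among themselves. GTT2, a glutathione transferase, stood at 192, 131 and 184 at 1 °C against 343, 832 and 2237, and its change of -2.73 became -1.78 without replicate 3 at 30 °C. GRX2, a glutaredoxin, changed by -0.63 ± 0.14, while GPX1, a glutathione peroxidase, was higher at 179, 165 and 169.6 against 86.3, 117 and 121, a change of 0.70 ± 0.11. GTO3, a transferase of low level, rose by 2.95 ± 0.27, and TRR2, the mitochondrial thioredoxin reductase, by 1.17 ± 0.07.

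Chaperones were lower apart from a few members. Of 23 small heat shock proteins, HSP90 proteins and their partners, 17 were lower and 4 higher with a median of -0.74, and of 14 HSP70 proteins 9 were lower and 2 higher with a median of -0.97. HSP26, a small heat shock protein that holds unfolded proteins, stood at 215, 262 and 325 at 1 °C against 933, 2285 and 3509.9 at 30 °C, a change of -3.04 ± 0.35 (edgeR adjusted p = 2e-06). The 30 °C libraries varied widely, and all were above those at 1 °C. CPR6 and AHA1, partners of HSP90, changed by -3.04 ± 0.11 and -2.25 ± 0.09, and HSP104, which dissolves aggregates, by -0.74 ± 0.11. Higher members were HSP12, XDJ1 (an HSP40 of the mitochondrial surface) at 1.24 ± 0.15 and ECM10 (a minor mitochondrial HSP70) at 1.36 ± 0.08. The share of mRNA in the first list was 4.35 ± 0.64% at 1 °C against 2.42 ± 0.54% at 30 °C although most of its genes were lower, and HSP12 made up most of that share. The order turns with the unit, since by reads, not corrected for length, the share at 1 °C was 0.896 times that at 30 °C.

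Of 24 stress regulators, 9 were higher and 4 lower, beside 36.9% and 36.4% of all genes, with a median of 0.06. MSN2 stood at 65.0, 60.4 and 66.2 at 1 °C against 51.5, 41.2 and 35.8 at 30 °C, a change of 0.58 ± 0.11, and MSN4 at -0.22 ± 0.11 did not pass the test. Without replicate 3 at 30 °C MSN4 was lower, at -0.36 (edgeR adjusted p = 0.00044). RIM15, the kinase that brings cells into quiescence, changed by 0.94 ± 0.08, and UPC2, a regulator of sterol uptake, by 1.42 ± 0.09.

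Stationary-phase genes split into a group that was higher and a group that was lower. Of 29 tested, 15 were higher and 9 lower, with a median of 0.47 and a share of mRNA of 5.25 ± 0.56% at 1 °C against 2.08 ± 0.55% at 30 °C, of which HSP12 was again the largest part. SPG4, known only as needed for survival in stationary phase, stood at 1008, 1037 and 1003 at 1 °C against 48.2, 74.3 and 95.05 at 30 °C, a change of 3.84 ± 0.17 (edgeR adjusted p = 1.5e-10). RTN2, a reticulon of the endoplasmic reticulum, stood at 1276, 1210.2 and 1212 against 232, 257 and 153, a change of 2.54 ± 0.16. Both were tight at 1 °C and more scattered at 30 °C. GRE3, an aldose reductase, and SOL4, of the pentose phosphate pathway, were lower at -2.58 ± 0.08 and -1.77 ± 0.12.

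Reserve carbohydrate genes divided. Of 20 genes of trehalose and glycogen metabolism 11 were lower and 5 higher, with a median of -0.39. The glycogen primer GLG2 and the branching enzyme GLC3 were higher, at 1.47 ± 0.12 and 1.01 ± 0.10. PGM2 and UGP1, which make the UDP-glucose from which both reserves are built, and GSY2, the main glycogen synthase, were lower at -1.66 ± 0.08, -1.68 ± 0.18 and -1.55 ± 0.13.

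Iron uptake genes were higher, 23 of 32 with 5 lower, 15 of them by at least 2-fold, and the median was 0.90. SIT1 and ARN2 import iron bound to siderophores. SIT1 stood at 79.9, 81.6 and 68.3 at 1 °C against 4.55, 2.32 and 3.95 at 30 °C, a log2 change of 4.39 ± 0.20 (edgeR adjusted p = 1.5e-10), and ARN2 changed by 2.79 ± 0.12. HMX1, the heme oxygenase that recycles iron, stood at 526, 482 and 547 against 161, 133 and 119, a change of 1.93 ± 0.10. Lower members were ISU2, a scaffold for iron-sulfur clusters, at -1.86 ± 0.20, and CCC1, which stores iron in the vacuole, at -1.10.

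Cold-shock mannoproteins of the cell wall had 5 of 9 higher and 0 lower, with a median of 1.93 (1.62 without replicate 2 at 1 °C). TIR1 stood at 30.0, 23.8 and 25.1 at 1 °C against 0.907, 1.12 and 1.198 at 30 °C, a change of 4.59 ± 0.22 (edgeR adjusted p = 2.4e-10). TIP1, the most abundant member, stood at 356, 558 and 460.1 against 103, 126 and 171, a change of 1.80 ± 0.19. DAN1, which is used without oxygen, stood at 1.95, 4.73 and 2.52 at 1 °C but at 0, 0 and 0.0422 at 30 °C, where a single read was found.

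Several genes of meiosis and spores were higher. W303 of a single mating type cannot enter meiosis, and these genes are normally off in it. Of 38 tested genes of the meiosis and sporulation list, 24 were higher and 4 lower, with a median of 1.21, and without replicate 2 at 1 °C 20 were higher and 6 lower with a median of 0.80. OSW1, of the outer spore wall and outside that list, stood at 53.7, 52.1 and 50.2 at 1 °C against 0.403, 0.776 and 1.39 at 30 °C, a change of 5.74 ± 0.22. SPR3, a septin of sporulation, stood at 31.6, 33.9 and 29.9 against 0.722, 1.38 and 1.27, a change of 4.80 ± 0.16 (edgeR adjusted p = 2.1e-11). Neither depended on replicate 2, whose values lay with those of the other 1 °C libraries.

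SPR2, a putative spore wall protein also outside the list, stood at 30.5, 35.8 and 32.6 at 1 °C but at 0, 0 and 1.04 at 30 °C. MUM3 and SPO75, of spore formation, and SPS2, of the spore wall, changed by 4.54 ± 0.28, 4.73 ± 0.37 and 4.48 ± 0.42. HOP1, of meiotic chromosomes, changed by 3.01 ± 0.16, and SGA1, the glycogen-digesting enzyme of sporulation, by 2.02 ± 0.10. IME2, the kinase that starts meiosis, and SPO11, which makes the breaks of recombination, were lower at -0.92 and -1.17. Both had low levels, with no 1 °C library above 5.94.

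Of the 15 largest rises, 3 rested on replicate 2 at 1 °C. SET6, a SET domain protein, stood at 2.25, 59.0 and 2.90 and changed by 5.04, or by 1.98 without that library. FRE5, a putative ferric reductase, went from 4.52 to 2.10, and AMF1, a putative ammonium transporter, from 4.30 to 2.13. All 3 stayed past the test with their 30 °C levels at or below 1.00.

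Of 20 genes of a-cell mating and pheromone response, 4 were higher, each by at least 2-fold, and 8 lower, with a median of -0.24. Of all genes, 36.9% were higher and 36.4% lower. FIG1, induced by pheromone, was highest at 2.65. The a-specific genes STE2 (the alpha-factor receptor) and STE6 (the a-factor exporter) were present in all the libraries and lower at 1 °C, at -1.23 ± 0.09 and -2.03 ± 0.12. Of 4 tested genes specific to alpha cells, 3 were higher, and without replicate 2 at 1 °C 2 were higher and 1 lower. The alpha-factor gene MF(ALPHA)1, which MATa cells do not use, stood at 68.8, 116 and 97.2 at 1 °C but at 3.40, 0.469 and 1.68 at 30 °C, a change of 5.70 ± 0.41. STE3, the a-factor receptor of alpha cells, stood at 6.88, 10.0 and 7.26 against 1.38, 1.23 and 3.44, a change of 1.92 ± 0.30. MF(ALPHA)2 rested on replicate 2 (2.97, and 1.22 with an edgeR adjusted p of 0.052 without it), and SAG1, the alpha-agglutinin, stood at 0.20 ± 0.31, and was lower without that library, at -0.47 (edgeR adjusted p = 0.015). Whether some cells in the cultures were of the alpha type was not tested. TRP1, which the genotype lists as a deletion, was not near 0: it stood at 38.4, 33.9 and 43.8 at 1 °C, against 29.2, 21.6 and 24.2 at 30 °C.

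Genes of the cell cycle were called in both directions. Of 40 genes for entry into S phase and DNA replication, 10 were higher and 15 lower, with a median of -0.16. Of 36 genes for mitosis, mitotic exit and cell separation, 4 were higher and 11 lower, with a median of -0.28. Beside the counts of both lists, 36.9% of all genes tested were higher and 36.4% lower. WHI5, the inhibitor of G1 exit, stood at 13.2, 15.1 and 13.4 at 1 °C against 17.4, 16.1 and 14.8 at 30 °C, a change of -0.20 ± 0.16 that did not pass the test. SIC1, which holds back S phase, changed by 0.89 ± 0.10, and CDC28, the cell-cycle kinase, by -1.15 ± 0.11. The histone genes parted: HHT1 stood at 3169.8, 2733 and 3186 against 1499, 1204 and 859.5, a change of 1.39 ± 0.15, while HHF2 and HTB2 were at -1.17 ± 0.28 and -1.88 ± 0.36.

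**Figure D4:**
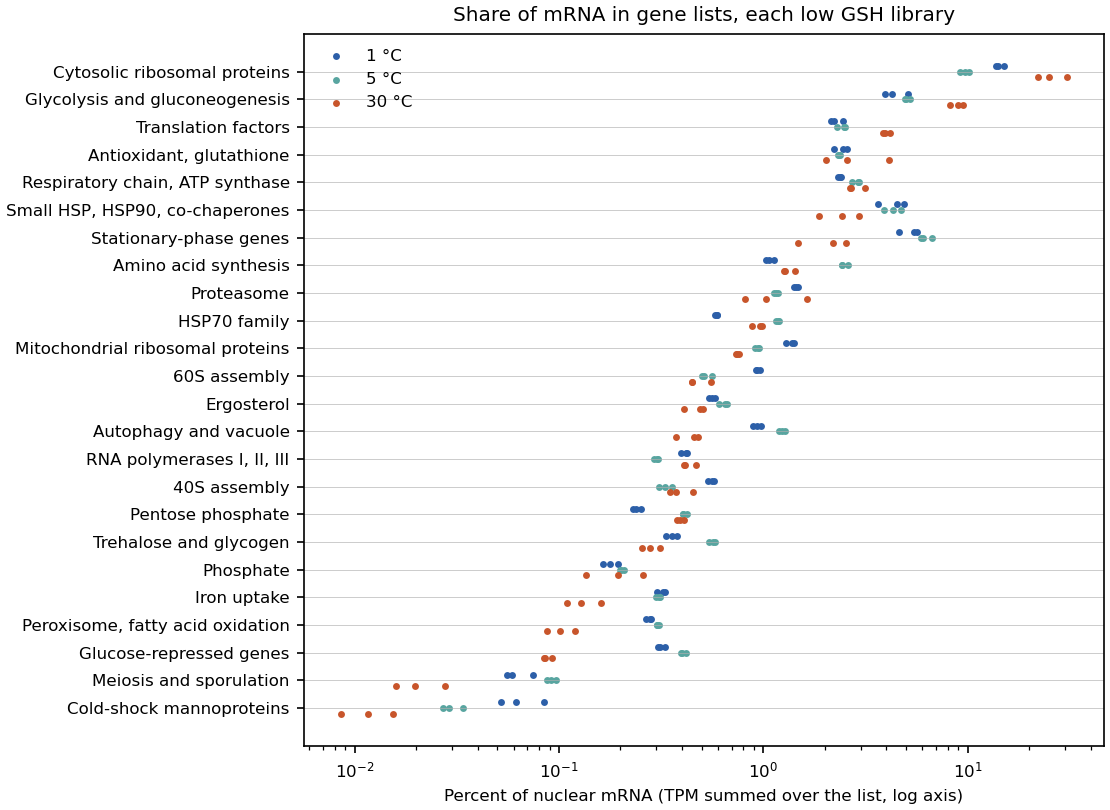
Percent of nuclear mRNA (summed TPM, log axis) taken by each gene list in every low GSH library at 1 °C, 5 °C and 30 °C, 1 point per library. Ribosomal proteins took 14.3% at 1 °C and 26.0% at 30 °C on average, and glucose-repressed genes 0.315% and 0.0872%.

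The change varied with how abundant a gene was and where it lay. In the top 25% of genes by mean TPM the median log2 change was -0.61 and 35.7% were at least 2-fold lower, beside 14.8% of all genes. In the lowest 25% the median was 0.31 and 22.5% were at least 2-fold higher (18.4% without replicate 2 at 1 °C), beside 12.8% of all genes. Of 337 genes within 30 kb of the outermost gene of a chromosome arm, 26.4% were at least 2-fold higher (22.3% without replicate 2) against 12.0% of the 5360 genes elsewhere. Genes annotated with more than 1 coding part were at least 2-fold lower in 126 of 270 cases (46.7%). With ribosomal proteins left out it was 40 of 180 (22.2%), against 13.2% of genes with 1 coding part.

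Promoter sequences (R64, from the RefSeq genome) were searched in the 500 bases before each start codon, on both strands. The stress response element AGGGG was found before 34.6% of all genes tested, before 42.7% of those at least 2-fold higher, 34.8% of those at least 2-fold lower and 33.2% of the others. It was found before 16 of 20 trehalose and glycogen genes and before 11 of 13 pentose phosphate genes. The PAC element GCGATGAG stood before 5.04% of all genes, but before 55.1% of the 60S and 50.9% of the 40S assembly genes and 1 of 137 ribosomal protein genes. The RRPE core AAAATTTT stood before 12.8% of all genes and 78.3% and 78.9% of those lists. It also stood before 59.1% of translation factors and 51.6% of RNA polymerase genes. Of genes at least 2-fold higher 8.07% had it, and of those at least 2-fold lower 18.0%. A match of letters is a description and does not show that a factor binds there.

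The 5 °C libraries, 3 of low GSH cultures treated in the same way, show where 1 °C and 5 °C differed. Tested directly in the same fit, 1700 genes were higher at 1 °C than at 5 °C (29.8%) and 1644 lower (28.9%). Of the 731 genes at least 2-fold higher than at 30 °C, 292 were also higher than at 5 °C and 152 were lower than at 5 °C. Of the 843 at least 2-fold lower, 365 were also lower than at 5 °C and 139 were higher. AZR1 was higher at 1 °C than at 5 °C by 6.01 on the log2 scale (edgeR adjusted p = 2.6e-10). Of the 9 cold-shock mannoproteins TIP1 alone was higher, by 1.92, and 3 were lower (5 without replicate 2 at 1 °C), with a median of -0.41.

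Genes for ribosome assembly differed between the cold temperatures. Of the 69 genes for 60S assembly 59 were higher at 1 °C than at 5 °C and 0 lower, and of the 57 for 40S assembly 51 were higher and 0 lower. RSA3, of the 60S precursor, stood at 219.9, 227 and 209 at 1 °C, at 71.6, 73.9 and 77.9 at 5 °C and at 109, 93.8 and 115 at 30 °C. Cytosolic ribosomal proteins had 71 of 137 higher than at 5 °C and 2 lower, mitochondrial ribosomal proteins 53 of 76 and 2, and RNA polymerase subunits 18 of 31 and 3. The share of mRNA in cytosolic ribosomal proteins was 9.70% at 5 °C, below that at 1 °C.

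Other lists had more genes lower at 1 °C than at 5 °C. Amino acid synthesis had 49 of 59 genes lower at 1 °C than at 5 °C and 2 higher, the respiratory chain 33 of 44 lower and 2 higher, stationary-phase genes 23 of 29 and 2, and trehalose and glycogen genes 17 of 20 and 1. HSP26 stood at 2019.9, 2870.2 and 2322 at 5 °C, within the spread of the 30 °C libraries and above each of the 1 °C libraries, with a difference between 1 °C and 5 °C of -3.16. CTT1 differed by -1.74, HSP104 by -1.37 and HAP4 by -2.10. SPG4 was higher at both cold temperatures than at 30 °C and lower at 1 °C than at 5 °C, with a difference of -1.59 on the log2 scale. On the log2 scale, CYC1, YHB1 and PDC5 had 5 °C levels closer to those of 1 °C than of 30 °C. CYC1 stood at 91.0, 109 and 116, YHB1 at 45.0, 36.4 and 38.3 and PDC5 at 303.2, 243 and 340.5.

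**Figure D5:**
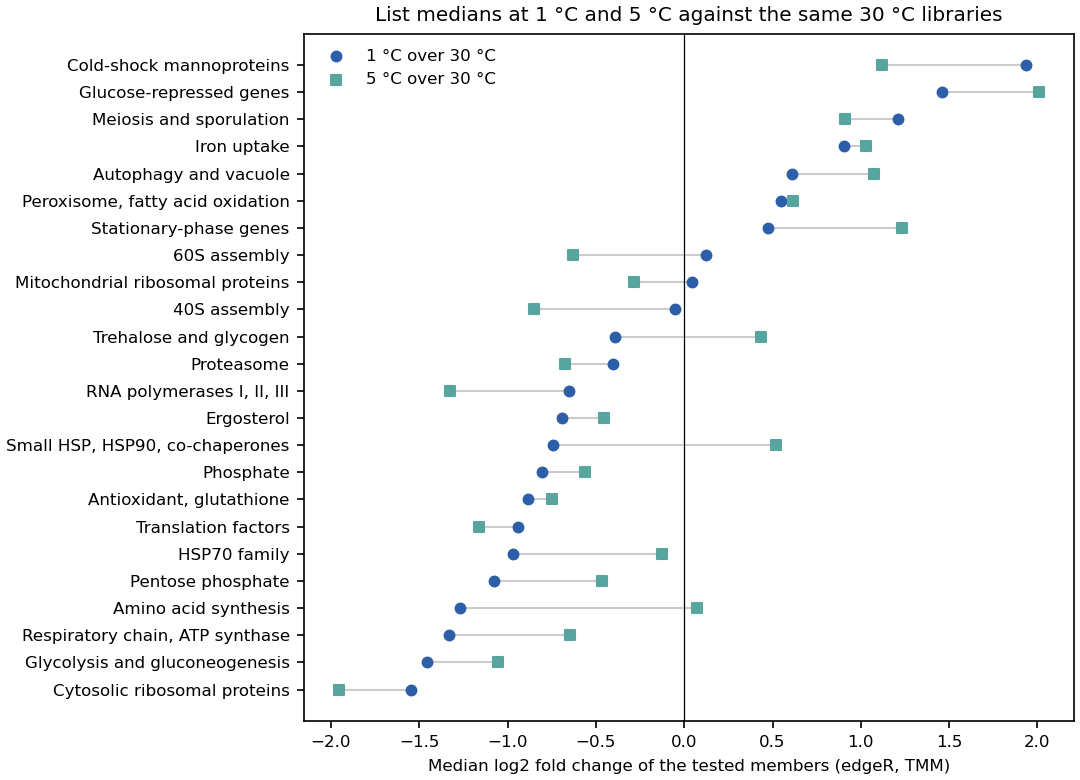
Median log2 fold change over 30 °C of each gene list at 1 °C and at 5 °C, both against the same 3 libraries at 30 °C. The lists for ribosome assembly lie near 0 at 1 °C, and the 1 °C and 5 °C values share their control libraries and are set side by side only.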

How the data were processed

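RNA was extracted, depleted of ribosomal RNA and sequenced with a stranded kit, and the authors quantified it with Salmon 1.5.1 against a joint set of S. cerevisiae and S. pombe transcripts. The submitters' notes name build R64, and the strand setting is not given in the sources used here. The deposited values used were estimated counts and TPM per transcript. Estimated counts of the 5876 nuclear protein-coding genes were rounded and fitted over all 15 steady-state libraries with edgeR 4.0.16 in R 4.3.3 (TMM, filterByExpr, quasi-likelihood test, Benjamini-Hochberg over 5697 genes), and temperatures were compared as contrasts. The deposited TPM values were rescaled to these genes. Near-identical copies (193 genes) were found with BLAST 2.17.0. In simulated data 100 of 5673 genes were changed by 1.41-fold and 100 by 2-fold, and 55% and 90% of these were called.

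Genes were named as the 15 largest rises and falls with a standard name, at least 100 counts, no overlap between groups and no near-identical copy, as the 3 members with the smallest adjusted p per list and direction, as genes the study's methods name, as the 10 most abundant at each temperature, and as strain and mating-type checks. Other genes named were chosen after their values were seen. The groups, the 44 lists and the rules were chosen with earlier results of these data known.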

Additional observations from a re-analysis of the deposited data

Results flagged for a closer look

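In replicate 2 at 1 °C, 1.02% of the reads on budding yeast rows fell on open reading frames that R64 does not count as protein-coding, above the 0.216% to 0.284% of the other steady-state libraries. Its part in the results was not tested beyond the values given without that library.

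Among the genes looked at, 8 lay on opposite sides of their 30 °C level at 1 °C and at 5 °C, by at least 2-fold each. A direct test of 1 °C against 5 °C was past the threshold for these 8, and they were chosen after their values were seen. Their choice by opposite sides already sets 1 °C and 5 °C apart, so that test adds no support. The difference of 1 °C from 5 °C on the log2 scale (edgeR) was -3.88 for HIS4 (histidine synthesis), -2.69 for LYS9 (lysine synthesis), -3.59 for URA2 (pyrimidine synthesis) and -2.80 for PCL5, a cyclin that controls the turnover of Gcn4. It was -3.35 for PMA2 (a minor plasma membrane proton pump), -2.82 for TKL2 (a minor transketolase) and -4.02 for HSP30 (a stress protein of the plasma membrane). The 1 °C and 30 °C levels of TKL2 and HSP30 overlapped, and HSP30 was not called against 30 °C without replicate 3 at 30 °C (-0.28). PGU1, a secreted pectin-digesting enzyme, was the gene of the 8 that was higher at 1 °C, by 3.70. Over all genes, 104 were above 30 °C at 1 °C and below it at 5 °C, and 171 the reverse.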

How the results depend on the processing

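The choice of library size changed the counts most. With S. pombe reads as library size 5334 genes were higher and 39 lower at 1 °C than at 30 °C, 5070 and 18 by at least 2-fold, and 4924 were higher and 73 lower than at 5 °C. With summed mRNA reads the counts were 3648 and 939, 1836 and 375, and 2909 and 888. The share of calls that were higher was 50.3% with TMM, 79.5% with summed mRNA reads and 99.3% with S. pombe reads. Leaving out 1 library at a time gave 2011 to 2220 higher, 1962 to 2071 lower, 682 to 805 at least 2-fold higher and 799 to 857 at least 2-fold lower, and against 5 °C 1418 to 1921 higher and 1486 to 1792 lower. The median of the glycerol list, -0.19, ran from -0.31 to 0.067 when 1 library was left out, turning positive without replicate 1 at 30 °C, and the cause was not tested. DESeq2 1.42.0 gave 2093 higher and 2099 lower, and no low-count filter 2135 and 2073. Same-numbered libraries did not deviate together (correlations 0.052, -0.026 and -0.067), and a fit with the replicate number as a block gave 2077 higher and 2060 lower. A fit of only the 6 libraries gave 1744 higher and 1749 lower without that block. With the block it gave 1637 and 1637, in a fit that was added after seeing the data. In simulated data with 3 libraries a group, 55% of 1.41-fold changes were called. Far fewer genes changed in that simulation than were called in the data, so it does not give the share of changes missed here.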
